A study of Homo sapiens with 4 samples.

Results

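MHC class I antigen presentation was followed through 9 genes in LNCaP cells, an androgen-responsive line derived from a human prostate cancer metastasis. The genes were the heavy chains HLA-B, HLA-C, HLA-E and HLA-F, the light chain B2M, the peptide transporter subunits TAP1 and TAP2, the loading factor TAPBP and the transactivator NLRC5. They were chosen by name, as the rows of the deposited table carrying these symbols, and all 9 were among its 17141 genes. LNCaP-RRM2 cells (2 libraries) overexpressed RRM2, a subunit of ribonucleotide reductase, from a lentiviral vector. LNCaP-EV cells (2 libraries) carried the empty vector. The lentiviral lines were stable and selected with puromycin, and no source says that replicate libraries were grown separately. The p-values below therefore cover only library-to-library spread, which may be technical.

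MHC class I molecules show peptides from inside the cell to CD8+ T cells. Peptides made by the proteasome are pumped into the endoplasmic reticulum by the TAP1-TAP2 transporter, fitted with the help of tapasin (TAPBP) onto a heavy chain paired with beta-2 microglobulin (B2M), and carried to the surface. HLA-B and HLA-C are classical, highly polymorphic heavy chains, and many tumours carry less class I on their surface than the tissue they came from. Transcription of these genes is driven by NLRC5, which works through an X and Y box element in their promoters, and by interferon and NF-kB signals.

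Promoter stretches are shown so that some of the letters of these known elements can be read in the genes described below. RefSeq promoter windows (GRCh38.p14) matched 7 of the 9 genes, with 8 windows in all, and HLA-E and NLRC5 had no entry. In the 250 bases before each RefSeq start, both strands were searched for 5 motifs, whose letters were chosen after these sequences had been seen. They were the interferon-stimulated response element core (GAAA, any 2 bases, GAAA), its relaxed form AANNGAAA, which lies within the core, the NF-kB site (GGG, any 2 bases, TT, any base, CC), the CRE-like site TGACG and the CCAAT box. The stretches below run 5′ to 3′ on the strand of the gene, and capitals mark motif matches. Each stretch is only part of its 250-base window, so some matches counted below lie outside it. Among these are the NF-kB letters of TAP1 and TAPBP, TGACG of TAP2 and CCAAT of HLA-B, HLA-F, B2M and TAP1. HLA-B lies at chr6:31357271-31357366 (minus), HLA-C at chr6:31272183-31272253 (minus), HLA-F at chr6:29723268-29723297 (plus), B2M at chr15:44711363-44711456 (plus), TAP1 at chr6:32853816-32853845 (minus), TAP2 at chr6:32838778-32838807 (minus) and TAPBP at chr6:33314079-33314108 (minus). The deposited table places the starts of TAP1, TAP2 and TAPBP further upstream than RefSeq does, so these 3 stretches fall inside the gene spans of the table given below.
HLA-B: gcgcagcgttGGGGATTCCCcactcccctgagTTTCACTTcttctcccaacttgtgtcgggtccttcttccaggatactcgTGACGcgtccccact
HLA-C: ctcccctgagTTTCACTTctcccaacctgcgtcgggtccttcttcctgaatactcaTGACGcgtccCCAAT
HLA-F: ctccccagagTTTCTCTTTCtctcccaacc
B2M: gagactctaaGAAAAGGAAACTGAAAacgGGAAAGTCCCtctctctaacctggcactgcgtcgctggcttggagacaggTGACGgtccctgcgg
TAP1: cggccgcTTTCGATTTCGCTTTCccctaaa
TAP2: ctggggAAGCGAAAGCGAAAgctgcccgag
TAPBP: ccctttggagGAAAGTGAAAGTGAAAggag

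The strict response element core was found in 5 of the 8 windows (HLA-F, B2M, TAP1, TAP2 and TAPBP), against 3.02% of all 35116 promoter windows. The relaxed form was found in 7 of the 8, against 20.3% of all windows. The NF-kB letters were found in 4 of the 8 (HLA-B, B2M, TAP1 and TAPBP), against 5.07%, and TGACG in 4 (HLA-B, HLA-C, B2M and TAP2), against 21.2%. CCAAT was found in 5 of the 8 and in 32.0% of all windows. The matches are descriptions of these letters. TAP2, which carries the core on the strand shown, is the gene of the 9 that was not called below.

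The table held estimated counts per gene, with library totals from 26601061 to 32601519. RRM2 itself stood at 9287 and 8976 CPM (counts scaled to a common library total) in LNCaP-RRM2, against 318 and 343 CPM in LNCaP-EV, a fold of 27.6. A gene was called higher or lower when edgeR's quasi-likelihood test gave a Benjamini-Hochberg adjusted p below 0.05 and the fold was above 1.5. All 9 luminal prostate markers fixed for the check were in the table. Of 10 leukocyte markers, 3 were in the table (CD68, LYZ and ITGAM), and the others, among them PTPRC, CD3E, CD3D, CD2, MS4A1 and CD14, were not analysed here. CD68, a lysosomal protein used as a macrophage marker, was called higher, while ITGAM was tested and not called and LYZ was too low to be tested. Of 3 fibroblast markers, COL1A1 was called higher, COL1A2 had 3 and 5 counts in LNCaP-RRM2, against 4 and 5 counts in LNCaP-EV, and DCN was not analysed here. Their part in the class I results was not tested.

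Of the 9 genes, 8 were called higher in LNCaP-RRM2 and 0 lower, where 12.5% of the 15162 genes tested were called higher and 7.96% lower. Without LNCaP-RRM2 replicate 1 the count was 5 of 9, where 2.84% of all genes tested were called higher, and with the GC trend of each library removed, as described below, it was 6 of 9, where 11.1% were. The median log2 fold change was 0.93 over the 9 genes and -0.03 over all genes tested. Without the fold limit the 9 genes gave the same 8 and 0, where 17.8% of genes tested were higher and 24.4% lower. For each of the 9 genes the LNCaP-RRM2 pair exceeded the LNCaP-EV pair without overlap, as did 34.4% of all genes tested, while 40.9% had the pairs apart in the opposite order. Fold changes were greatest for the heavy chains and smaller for the light chain, the transporter, tapasin and NLRC5.

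**Figure D1:**
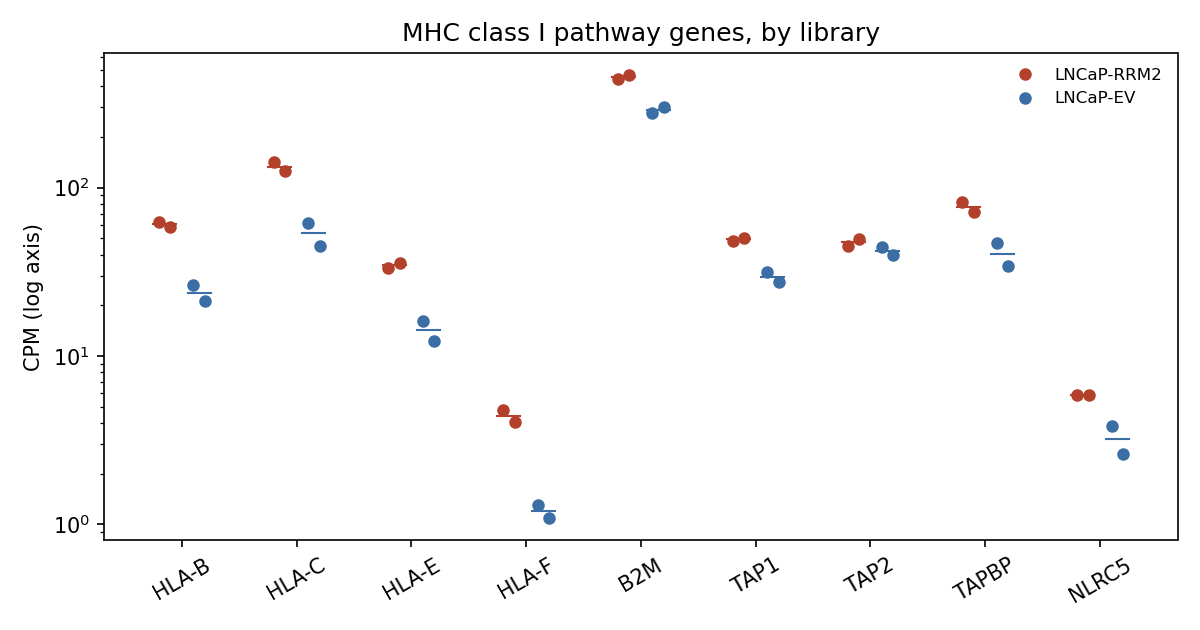
CPM (log axis) of the 9 genes in each library, with LNCaP-RRM2 in red and LNCaP-EV in blue, points for libraries and short lines for the mean of 2. Both red points lie above both blue points for every gene, by the least for TAP2 and by the most, relative to level, for HLA-F.

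The heavy chains bind the peptide and are what T cell and natural killer cell receptors read. HLA-B (chr6:31353866-31357245, minus strand, GRCh38) had 62.7 and 58.2 CPM in LNCaP-RRM2, against 26.3 and 21.2 CPM in LNCaP-EV. The groups did not overlap, and the log2 fold change was 1.35 (SE 0.13), with an adjusted p of 0.00296 by edgeR with Benjamini-Hochberg adjustment. HLA-C (chr6:31268749-31272136, minus strand), a main ligand of killer cell receptors, had 142 and 125 CPM in LNCaP-RRM2, against 61.9 and 45.1 CPM in LNCaP-EV. Both LNCaP-RRM2 libraries were more than 2 times the higher LNCaP-EV library, and the log2 fold change was 1.32 (SE 0.16, edgeR adjusted p = 0.00447).

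HLA-E and HLA-F are the nonclassical heavy chains. HLA-E (chr6:30489406-30494205, plus strand), which presents leader peptides of other class I chains to the NKG2A receptor, had 33.5 and 35.5 CPM in LNCaP-RRM2, against 16.2 and 12.2 CPM in LNCaP-EV. The groups were well apart, with a log2 fold change of 1.28 (SE 0.16, edgeR adjusted p = 0.00441). HLA-F (chr6:29723340-29727296, plus strand), the least abundant heavy chain here, had 4.75 and 4.07 CPM in LNCaP-RRM2, against 1.30 and 1.09 CPM in LNCaP-EV. It had the largest change of the 9 genes, a log2 fold change of 1.88 (SE 0.21, edgeR adjusted p = 0.00357). HLA-F overlaps HLA-F-AS1 on the opposite strand by 696 bases, and strand use in the counting is unstated. HLA-F-AS1 had 30.4 and 49.1 counts in LNCaP-RRM2, against 56.5 and 39.2 counts in LNCaP-EV, so its groups overlapped.

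Reads are shared among HLA genes, so the split between single chains is uncertain. Of all 50-base windows of the longest coding transcript, 2.54% in HLA-B, 6.71% in HLA-C, 5.13% in HLA-E and 1.70% in HLA-F also occurred exactly in a transcript of another gene (GENCODE v29). These shares come from reference alleles, and the alleles of LNCaP cells can differ from them. All HLA class I rows of the table, genes and pseudogenes, were therefore also summed. The sum was 328 and 298 CPM in LNCaP-RRM2, against 139 and 104 CPM in LNCaP-EV. It did not overlap between groups, and its log2 fold change was 1.37 (SE 0.15, edgeR adjusted p = 0.00340). The sum covers the HLA rows of the table only, and 2.63% of the HLA-E windows also occur in HLA-G, which was not analysed here.

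The shares of the larger chains in the HLA counts were nearly the same in all 4 libraries. HLA-C took 43.2% and 42.0% of the summed counts in LNCaP-RRM2, against 44.6% and 43.4% in LNCaP-EV. HLA-B took 19.1% and 19.5% in LNCaP-RRM2, against 18.9% and 20.4% in LNCaP-EV. The groups overlapped for HLA-B but not for HLA-C. HLA-F took 1.44% and 1.37% in LNCaP-RRM2, against 0.923% and 1.04% in LNCaP-EV, and was higher in both LNCaP-RRM2 libraries.

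**Figure D2:**
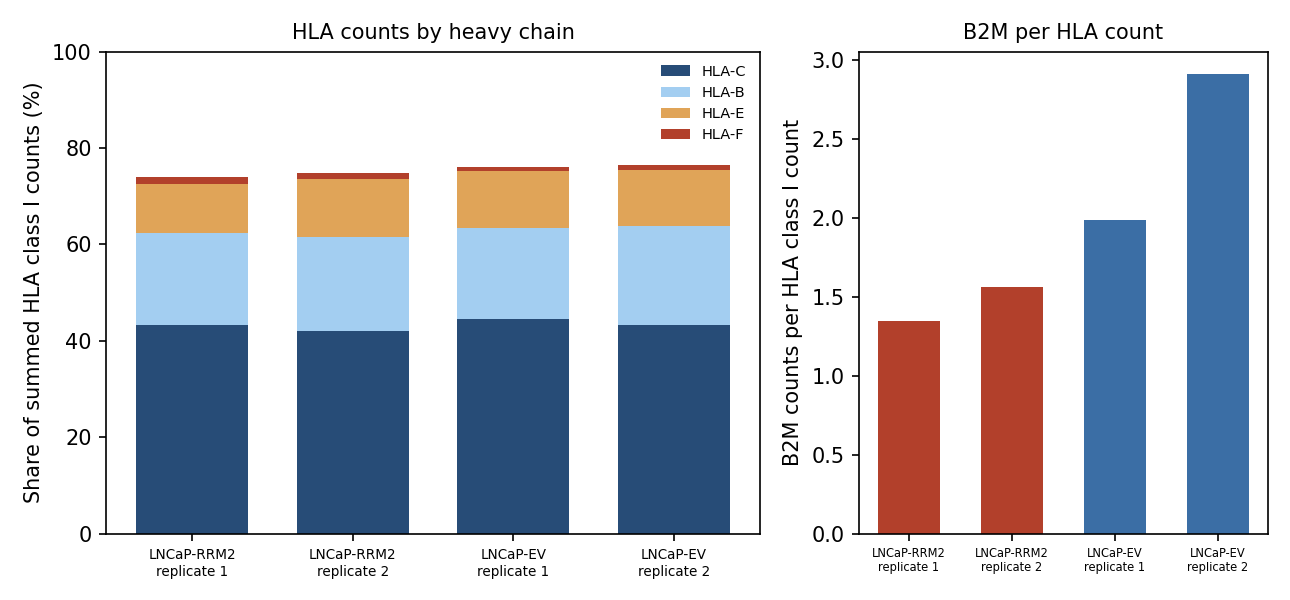
Left, share of the summed HLA class I counts (percent) held by HLA-C, HLA-B, HLA-E and HLA-F in each library, other rows not drawn. Right, B2M counts per HLA class I count, not corrected for GC content. HLA-C holds 42.0% to 44.6% of the counts in every library, and B2M per HLA count is lower in both LNCaP-RRM2 libraries than in both LNCaP-EV libraries.

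B2M (chr15:44711487-44718159, plus strand), the light chain that every class I heavy chain needs to reach the surface, changed less. It had 443 and 466 CPM in LNCaP-RRM2, against 276 and 303 CPM in LNCaP-EV. The means were 455 ± 15.9 CPM and 289 ± 18.6 CPM (SD, n = 2 each), without overlap. The log2 fold change was 0.65 (SE 0.07, edgeR adjusted p = 0.00377), a fold of 1.57, just past the limit of 1.5. Without LNCaP-EV replicate 1 it was 0.58 on the log2 scale, under that limit.

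B2M counts per HLA count were 1.35 and 1.56 in LNCaP-RRM2, against 1.99 and 2.91 in LNCaP-EV. The ratio was thus lower in both LNCaP-RRM2 libraries, and the LNCaP-EV libraries differed widely from each other. It was not corrected for GC content, which was 40.6% in B2M and 54.8% to 62.7% in the 4 heavy chains. With each library's GC trend removed, the log2 fold change was 0.74 for B2M and 0.97 for the HLA sum. The single heavy chains then ran from 0.79 for HLA-C to 1.59 for HLA-F. The difference between the changes of B2M and the heavy chains was not tested. Per kilobase of the longest transcript, B2M was the most abundant of the 9 genes, at 189 CPM per kb in LNCaP-RRM2 and 120 CPM per kb in LNCaP-EV. HLA-C followed at 71.0 CPM per kb in LNCaP-RRM2 and 28.5 CPM per kb in LNCaP-EV. NLRC5 was lowest, at 0.859 CPM per kb in LNCaP-RRM2 and 0.472 CPM per kb in LNCaP-EV.

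TAP1 and TAP2 form 1 transporter, yet only TAP1 was called. TAP1 (chr6:32845209-32853971, minus strand) had 48.3 and 50.4 CPM in LNCaP-RRM2, against 31.4 and 27.4 CPM in LNCaP-EV. The groups did not overlap, and the log2 fold change was 0.75 (SE 0.10, edgeR adjusted p = 0.00555). Without either LNCaP-RRM2 library TAP1 was no longer called (edgeR adjusted p = 0.0607 without replicate 1 and 0.0618 without replicate 2). TAP2 (chr6:32821833-32838823, minus strand) had 44.8 and 49.8 CPM in LNCaP-RRM2, against 44.1 and 40.0 CPM in LNCaP-EV. The libraries nearly touched, and the log2 fold change of 0.17 (SE 0.10) had an edgeR adjusted p of 0.219. With each library's GC trend removed, TAP1 stood at 0.46 and TAP2 at 0.15, and neither was called.

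TAP1 counts per TAP2 count were 1.08 and 1.01 in LNCaP-RRM2, against 0.712 and 0.683 in LNCaP-EV. The ratio was higher in both LNCaP-RRM2 libraries. It was not corrected for GC content, which was 57.5% in TAP1 and 49.1% in TAP2. The difference between the changes of TAP1 and TAP2 was not tested. Of the TAP2 windows, 35.8% occurred in another annotated gene, against 1.07% of those of TAP1. The TAP2 counts were nonetheless whole in every library, at 1216 and 1357 in LNCaP-RRM2, against 1394 and 1070 in LNCaP-EV. Those of TAP1 were not whole. TAP1 overlaps PSMB8-AS1 on the opposite strand by 1292 bases, and PSMB8-AS1 had 26.5 and 13.5 counts in LNCaP-RRM2, against 8.14 and 12.5 counts in LNCaP-EV.

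TAPBP (chr6:33299695-33314387, minus strand) encodes tapasin, which holds empty class I molecules at the transporter. It had 82.6 and 71.4 CPM in LNCaP-RRM2, against 46.7 and 34.2 CPM in LNCaP-EV. The groups did not overlap, although both spread widely, and the log2 fold change was 0.93 (SE 0.17, edgeR adjusted p = 0.0107). NLRC5 (chr16:56989485-57083524, plus strand), the class I transactivator, had 5.89 and 5.83 CPM in LNCaP-RRM2, against 3.83 and 2.62 CPM in LNCaP-EV. The LNCaP-RRM2 libraries were nearly equal and the LNCaP-EV libraries were apart, and the log2 fold change was 0.86 (SE 0.22, edgeR adjusted p = 0.0275). Without LNCaP-RRM2 replicate 1 neither was called (edgeR adjusted p = 0.0755 for TAPBP and 0.132 for NLRC5), and without replicate 2 NLRC5 was not (0.112).

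Transcripts rich in G and C differed between libraries, also within a group, and most of these genes are rich in them. The median difference of LNCaP-EV replicate 1 minus replicate 2 ran from -0.11 to 0.66 on the log2 scale across 10 equal groups of genes ordered by GC content. That of LNCaP-RRM2 minus LNCaP-EV ran from -0.23 in the group lowest in GC to 0.52 in the highest. GC content was 54.8% to 62.7% in the 4 heavy chains and 57.5% to 58.0% in TAP1, TAPBP and NLRC5, against a median of 48.7% over genes. B2M, at 40.6%, lay in a group of which 6.40% were called higher. HLA-E, HLA-F, TAP1, TAPBP and NLRC5 lay in a group of which 18.0% were called higher, HLA-B in one of which 22.6% were and HLA-C in the highest, of which 24.3% were. With each library's GC trend removed, the log2 fold changes were 0.99 for HLA-B, 0.79 for HLA-C, 1.11 for HLA-E, 1.59 for HLA-F, 0.74 for B2M and 0.63 for TAPBP, all still called. TAP1 at 0.46 and NLRC5 at 0.55 then fell short of the fold limit.

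**Figure D3:**
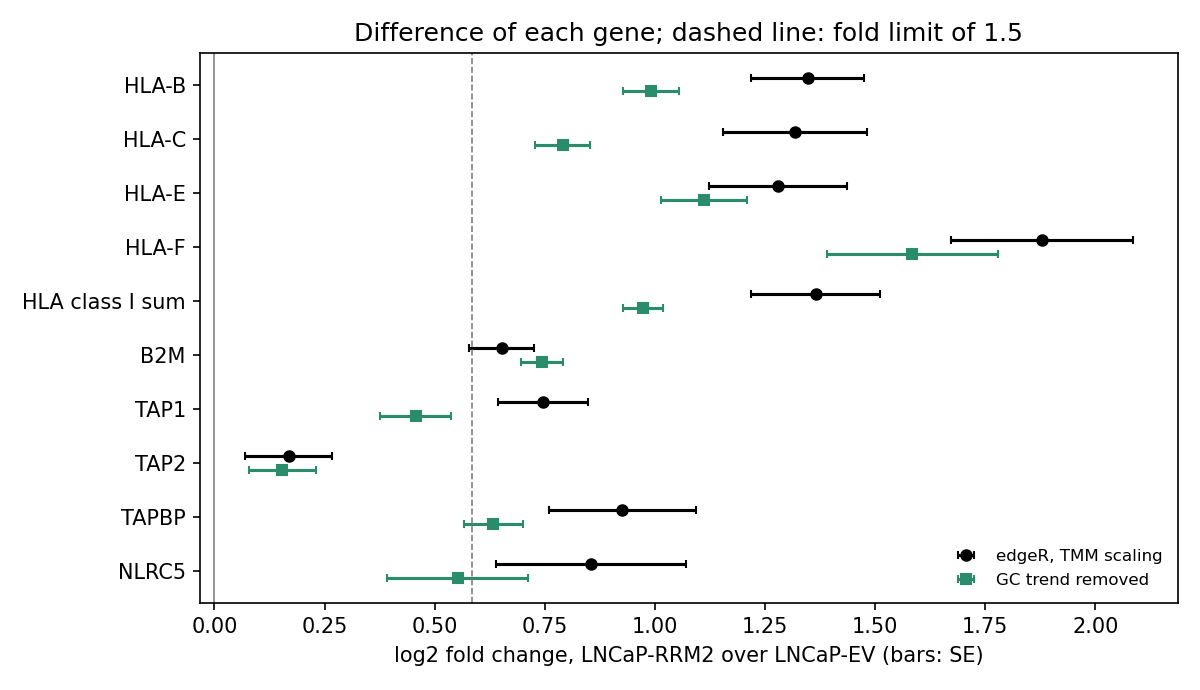
Log2 fold change of LNCaP-RRM2 over LNCaP-EV for each gene and for the HLA class I sum, from the edgeR fit (black circles) and with the GC trend of each library removed (green squares), bars for SE and a dashed line at the fold limit of 1.5. The heavy chains stay right of the line in both fits, while TAP1 and NLRC5 cross to its left with the trend removed.

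Between HLA-F and TAPBP on chromosome 6, 111 other genes were tested. Of these, 12.6% were called higher and 8.11% lower, close to the shares over all genes, and their median log2 fold change was 0.01.

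The other genes of the pathway were counted by list, and differences between lists were not tested. The shares of all genes tested that were called, 12.5% higher and 7.96% lower, apply to each count. Of 12 class I-like chains tested, 5 were called higher and 0 lower, with a median log2 fold change of 0.97. They were PROCR at 2.32 (the endothelial protein C receptor), RAET1L at 2.69 and ULBP3 at 0.94 (both ligands of the NKG2D receptor), MR1 at 1.32 (which presents vitamin B metabolites to MAIT cells) and FCGRT at 2.36 (the neonatal Fc receptor). FCGRT rested on 11 and 14 counts in LNCaP-RRM2, against 2 and 3 counts in LNCaP-EV. Of 6 loading partners and peptide editing genes, 1 was called higher, the peptide-trimming enzyme ERAP2, with a log2 fold change of 1.34. ERAP1 stood at 0.04, the chaperones CALR at 0.12 and CANX at 0.16, PDIA3 at 0.43 and TAPBPL at 0.22, none of them called.

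The immunoproteasome and its activator, which shape peptides for class I, had 5 genes tested and 0 called, with a median log2 fold change of -0.13. PSMB8 had 12 and 21 counts in LNCaP-RRM2, against 6 and 11 counts in LNCaP-EV, and PSMB9 was too low to be tested. PSMB10 stood at 14.5 and 14.3 CPM in LNCaP-RRM2, against 14.5 and 11.4 CPM in LNCaP-EV, and its log2 fold change of 0.15 was not called. The 3 constitutive catalytic subunits and the 8 cytosolic peptidases had 0 calls each, with medians of -0.34 and -0.09. Without the fold limit all 3 constitutive subunits passed as lower, as did 2 of the 8 peptidases and 2 of the 5 immunoproteasome and activator genes.

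Among 16 regulators of class I transcription, 2 were called higher and 4 lower, with a median log2 fold change of -0.24. The higher count equals the share of 12.5% over all genes. Besides NLRC5, the interferon-induced activator IRF1 was higher, at 6.04 and 7.04 CPM in LNCaP-RRM2, against 3.61 and 3.93 CPM in LNCaP-EV. EZH2, the histone methyltransferase of the Polycomb complex that can silence class I genes, had 36.0 and 35.6 CPM in LNCaP-RRM2, against 72.3 and 78.0 CPM in LNCaP-EV. Its groups were far apart, with a log2 fold change of -1.07. RFXAP, a subunit of the X box factor, had a log2 fold change of -0.86, NFYB of the CCAAT-binding factor -0.62 and the Polycomb subunit EED -0.60. NFYB was called in only 4 and EED in only 3 of 14 alternatives, whereas EZH2 and RFXAP were called in 14. RFX5, the DNA-binding subunit beside RFXAP, stood at 0.16 and was not called.

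The interferon receptor pathway had 11 genes tested and 0 called, with a median log2 fold change of 0.25. Without the fold limit 3 of them passed as higher and 3 as lower. JAK1, the receptor kinase, had 17.6 and 18.1 CPM in LNCaP-RRM2, against 13.3 and 13.6 CPM in LNCaP-EV. The groups did not overlap, and the log2 fold change of 0.41 was under the fold limit.

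Of 4 inhibitory ligands tested, NECTIN2, a ligand of TIGIT, was called higher at 1.20. CD274 (PD-L1) had 3.35 and 3.34 CPM in LNCaP-RRM2, against 1.52 and 2.54 CPM in LNCaP-EV, and its log2 fold change of 0.73 was not called (edgeR adjusted p = 0.0824). Of 5 MHC class II genes tested, HLA-DQB1 was called higher at 1.75 and HLA-DMA at 1.15. The class II transactivator CIITA and the invariant chain CD74 were not analysed here. The 3 genes outside the HLA family whose centred log2 CPM over the 4 libraries lay nearest to HLA-B were RNF128, CRISPLD1 and ST8SIA2, at distances of 0.0408, 0.0554 and 0.0788. CRISPLD1 rested on 37 and 33 counts in LNCaP-RRM2, against 16 and 11 counts in LNCaP-EV. ST8SIA2 rested on 12 and 12 counts in LNCaP-RRM2, against 5 and 3 counts in LNCaP-EV.

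**Figure D4:**
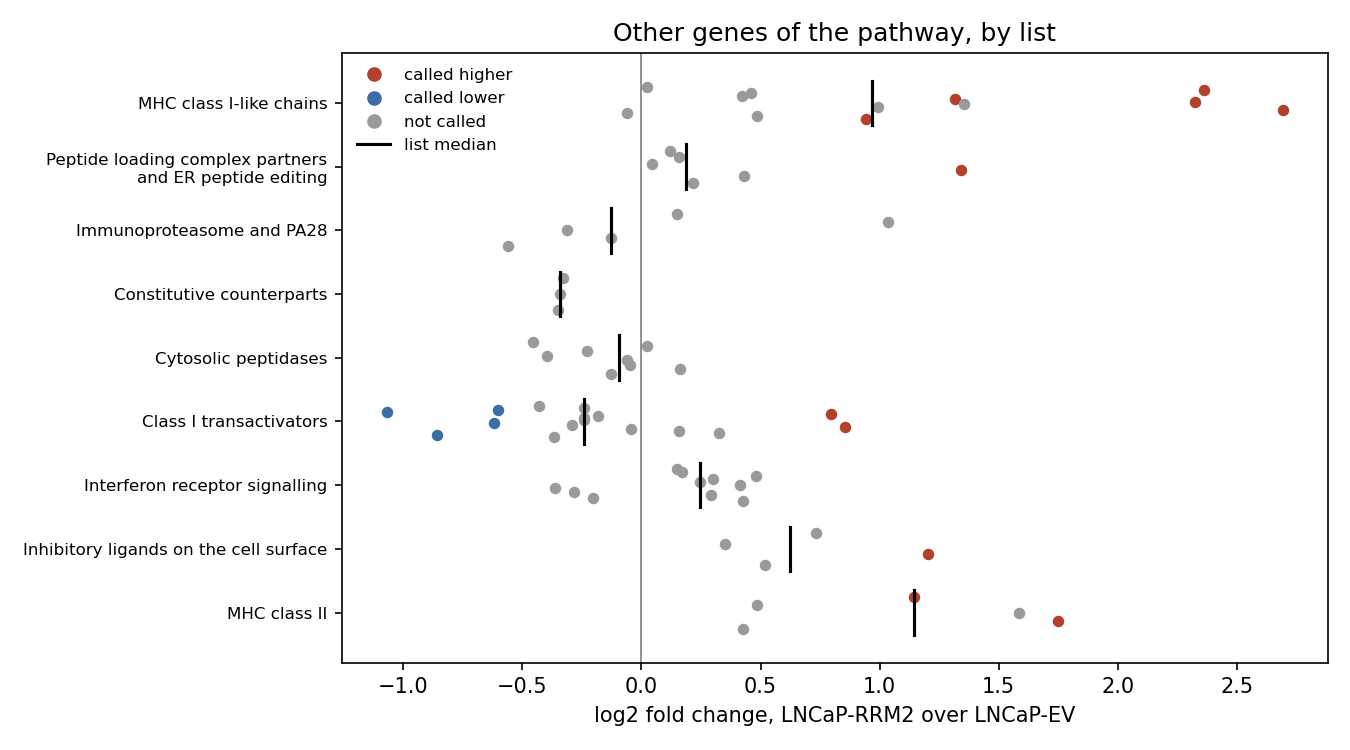
Log2 fold change of LNCaP-RRM2 over LNCaP-EV for each tested gene of 9 lists of the pathway, coloured by call, with a black bar at the list median. Over all genes tested 12.5% were called higher and 7.96% lower, and of the class I-like chains 5 of 12 are red.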

How the data were processed

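RNA was measured in 4 libraries, 2 of LNCaP-RRM2 and 2 of LNCaP-EV, grouped by their titles. Total RNA was sequenced as 2 x 50 bp reads, which were analysed in Partek Flow. The aligner, build, annotation and quantification settings were not given in the sources used here. Expected counts per gene, unscaled between libraries, were deposited by the authors, and 56.1% to 58.0% of the values of each library were whole. They were rounded before testing. The table held genes with at least 10 counts over the libraries. Gene positions overlapped GRCh38 for 99.97% of matched genes, and 1 was subtracted from printed ends. Replicate libraries differed by more than sampling noise.

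Genes were filtered with filterByExpr, scaled with TMM factors and tested with edgeR 4.0.16 (R 4.3.3) by the quasi-likelihood F-test with Benjamini-Hochberg adjustment over 15162 genes. CPM use TMM-scaled totals. TMM takes 1 library as its reference, and its automatic choice, LNCaP-EV replicate 2, was nearly tied with LNCaP-RRM2 replicate 2. The automatic choice was kept in every TMM fit holding that library, and the other references were tried as alternatives. The summed HLA row took the count-weighted GC content of its rows.

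Named genes were the 9 genes, RRM2, called genes of each list up to 6 by p, a fixed set (HLA-G, PSMB8, PSMB9, PSMB10, ERAP1, ERAP2, TAPBPL, CALR, CANX, PDIA3, IRF1, RFX5, JAK1, CD274, CIITA and CD74) and the 3 genes nearest to HLA-B. HLA-G was not analysed here, and not every gene named by the rule is reported here. The genes and lists were chosen with earlier results of these data known. On simulated data the fit returned the fold sizes put in. With dispersions drawn gene by gene it made more false calls than the adjusted p allows, so calls near the threshold are less certain than their adjusted p. Alternatives were DESeq2 1.42.0 size factors and its Wald test, total counts, upper-quartile factors, other filters, limma 3.58.1 voom, a replicate block, removal of the GC trend, no fold limit and leaving out each library. Alternatives chosen after seeing the data were GC centring on the mean and the TMM reference library.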

Additional observations from a re-analysis of the deposited data

How the results depend on the processing

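Over 14 alternatives with all libraries, HLA-B, HLA-C, HLA-E, B2M, TAPBP and the HLA sum were called higher in 14 of 14, HLA-F in 13 of 13 and TAP1 in 11 of 14, NLRC5 in 11 of 13 and TAP2 in 0 of 14, and 0 results changed sign. The HLA sum ranged from 0.97 to 1.45. TAP1 was not called at 0.46 with the GC trend removed, 0.45 with the replicate block added and 0.56 with centring on the mean, nor NLRC5 at 0.55 in the first pair.

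Leaving out 1 library gave 5 to 8 of the 9 genes called higher and 0 lower. Without LNCaP-RRM2 replicate 1, TAP1, TAPBP and NLRC5 were lost (edgeR adjusted p = 0.0607, 0.0755 and 0.132), and without LNCaP-RRM2 replicate 2, TAP1 and NLRC5 (0.0618 and 0.112). The spread then came from the LNCaP-EV pair, the lone library being assumed to vary like it. Over all genes 441 to 2889 were called higher and 326 to 1526 lower, and over the other pathway genes 8 to 16 higher and 1 to 5 lower.

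Of the other pathway genes, 11 were called higher and 4 lower. The lower count was 2 with DESeq2 size factors, total counts, upper-quartile factors, the stricter filter, the DESeq2 Wald test, each GC removal and 2 other TMM references. RFXAP and EZH2 were called in 14 of 14 alternatives, NFYB in 4 and EED in 3. Of the 4 fits that leave out 1 library, IRF1 and RFXAP were called in 2 and FCGRT in 1. The higher count was 19 with GC centred on the mean. Without a fold limit it was 19 higher and 16 lower, and 3694 of all genes were lower. The stricter filter left 694 of all genes lower.

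Of all calls, 61.1% were higher (1899 higher and 1207 lower). This share was 73.0% with LNCaP-EV replicate 1 as TMM reference, 71.6% with LNCaP-RRM2 replicate 2, 70.9% with DESeq2 size factors, 72.4% with total counts and 75.0% with upper-quartile factors. The 8 calls among the 9 genes held under each of these.

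The replicate numbers were not taken as pairs, since only 2 pairs exist and no label ties them, although same-numbered libraries deviated together (correlation 0.30 over 15162 genes). With the replicate block 8 of the 9 genes were called higher, and 2343 of all genes higher and 1254 lower. The cause of these changes was not tested.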
